A study of Mus musculus with 6 samples.

Results

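The 44 genes described here encode the voltage-gated sodium channels, the voltage-gated calcium channels and the hyperpolarization-activated cyclic nucleotide-gated (HCN) channels of the mouse. They were chosen from 36758 genes by a rule on gene symbols. The rule used no values, but it was set with earlier results of these data known. There were 10 sodium channel alpha genes (Scn1a to Scn11a), 4 sodium channel beta genes, 10 calcium channel alpha1 genes, 4 alpha2delta, 4 beta and 8 gamma genes, and 4 HCN genes. The measurements are RNA sequencing values from 6 libraries of brain RNA of C57BL/6J mice aged 6 months. In 3 libraries the mice had received 0.12% trimethylamine N-oxide (TMAO) daily for 16 weeks, and in 3 they had received water as vehicle for 16 weeks. TMAO is formed in the liver from trimethylamine that gut bacteria release. The labels assign the RNA to microglia, and they name no animal for any library. Their protocol speaks of pooled RNA in a template whose fields were left unfilled. The p-values therefore measure the spread between the libraries at hand, and that spread may be technical.

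Voltage-gated sodium channels open on depolarization and carry the rising phase of the action potential. Their large alpha subunit forms the pore, and small beta subunits with an immunoglobulin fold set gating and placement in the membrane. Calcium channels have an alpha1 pore subunit, an extracellular alpha2delta subunit and a cytoplasmic beta subunit, and they turn depolarization into calcium entry that drives transmitter release and gene expression. Most brain gamma subunits act as auxiliary proteins of AMPA-type glutamate receptors. HCN channels open on hyperpolarization, bind cyclic AMP and carry a pacemaker current. In the brain these genes are used mainly by neurons.

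The promoters below belong to genes described further on. Cacng5 and Hcn4 both had lower values in TMAO, and Hcn4 was singled out after its values were seen. Each sequence runs 5′ to 3′ over 250 bases before and 50 after the upstream-most RefSeq start (RefSeq, GRCm38.p6), and capitals mark the motifs searched. The sequences lie at chr11:107915006-107915305 (minus strand) for Cacng5 and chr9:58822699-58822998 (plus strand) for Hcn4.
Cacng5: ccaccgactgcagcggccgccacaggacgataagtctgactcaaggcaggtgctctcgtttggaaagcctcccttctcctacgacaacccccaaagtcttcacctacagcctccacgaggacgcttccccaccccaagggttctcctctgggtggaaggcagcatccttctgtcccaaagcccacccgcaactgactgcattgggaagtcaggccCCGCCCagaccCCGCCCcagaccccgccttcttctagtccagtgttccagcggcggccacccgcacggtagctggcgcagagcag
Hcn4: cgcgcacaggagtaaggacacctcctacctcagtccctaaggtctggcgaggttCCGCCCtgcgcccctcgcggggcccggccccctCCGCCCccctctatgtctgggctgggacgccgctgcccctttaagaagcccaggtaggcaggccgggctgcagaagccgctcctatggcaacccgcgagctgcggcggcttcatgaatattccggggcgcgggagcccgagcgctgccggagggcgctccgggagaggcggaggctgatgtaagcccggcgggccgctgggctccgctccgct
The motifs were the GC box GGGCGG, the E-box CAGCTG, the core TGACG of the cyclic AMP response element, and the left part CAGCACC and right part GGACAGC of RE1, the element bound by the neuronal repressor REST. Both strands were searched, and no matches overlapped in these sequences. RefSeq promoters were matched for 32 of the 44 genes. The GC box was in promoters of 17 of these 32 genes (53.1%), against 38.2% of the 27025 genes with a promoter. The E-box was in 12 of the 32 (37.5%), against 18.3%. The left RE1 part was in 0 of the 32, against 8.14% of all genes, and the right part was in 2, against 7.59%. TGACG was in 6 (18.8%), against 23% of all genes. Channel promoters were richer in G and C, with a median of 59.7%, against 52.7% over all promoters. The promoters shown have 63.3% for Cacng5 and 71.7% for Hcn4. A match describes the letters in this window and not binding.

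The vehicle library of replicate 1 was unlike the rest before any channel gene was considered. Its correlation across genes (log2 values, genes not being independent) was 0.804 to 0.896 with the others, against 0.959 to 0.986 among the other 5. The 15 neuron markers summed to 1200 to 1390 FPKM (fragment counts scaled to transcript length and to library size) in TMAO libraries, against 548, 1180 and 1280 FPKM in vehicle replicates 1, 2 and 3. The 7 excitatory neuron markers summed to 603 to 708 FPKM in TMAO, against 52.5, 540 and 560 FPKM in vehicle. The 10 microglia markers summed to 151 to 166 FPKM in TMAO and to 139 to 368 FPKM in vehicle, so neuronal RNA was abundant in libraries labelled microglia. Gabra6, a gene of cerebellar granule cells, was listed at 0 in all 6 libraries. In such mixed RNA, fewer cells of a type and less RNA per cell cannot be told apart.

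Channel RNA and neuron marker RNA were both lowest in vehicle replicate 1. The FPKM of the 44 channel genes summed to 641, 600 and 593 in TMAO replicates 1, 2 and 3, against 268, 500 and 572 in vehicle replicates 1, 2 and 3. Each TMAO library was above each vehicle library, and vehicle replicate 1 was lowest by a wide margin. As a percentage of the neuron marker sum, the channel sum was 46.3%, 45.4% and 49.5% in TMAO and 48.9%, 42.2% and 44.6% in vehicle. On this measure the groups overlapped. The part of neuronal content in the differences of single genes was not tested beyond the division by neuron markers given further on.

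**Figure D1:**
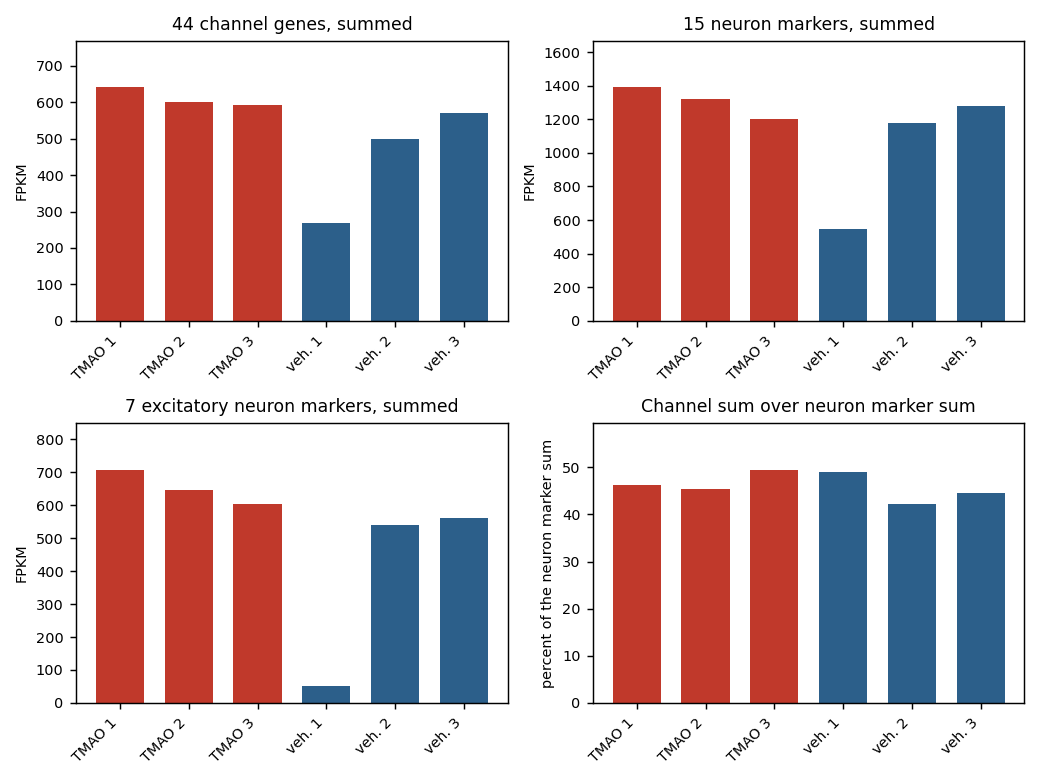
Summed FPKM of the 44 channel genes, the 15 neuron markers and the 7 excitatory neuron markers, and the channel sum as a percentage of the neuron marker sum, in each library (bars; TMAO red, vehicle blue). Vehicle replicate 1 had the lowest sums, with 268 FPKM of channel RNA and 52.5 FPKM of excitatory markers, while its channel percentage of 48.9% lay within the range of the TMAO libraries.

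No channel gene passed the test over all genes. Values were compared as log2(FPKM + 1) with limma among genes that reached 1 FPKM in 3 or more libraries, a scale that understates changes of low genes. Of the 44 channel genes, 32 passed this filter, all of them at 1 FPKM or more in all 6 libraries, and 12 did not. At an adjusted p of 0.05, 0 of the 32 were called by limma, as were 0% of the 14206 genes tested (smallest adjusted p 0.404). By limma at an unadjusted p under 0.05, 3 channel genes had higher values in TMAO (Scn1a, Cacng3 and Cacna2d3), against 4.84% of all genes. In the same test 1 had lower values (Cacng5), against 7.22% of all genes. Over all genes these were 687 higher and 1025 lower, a split that quantile normalization turned to 944 and 845 and equal medians to 969 and 769. The count of channel genes with higher values at this p was 0 without TMAO replicate 2 (1.82% of all genes) and 0 without TMAO replicate 3 (1.57%). It was 8 without vehicle replicate 1 (6.98% of all genes), 5 without vehicle replicate 2 (3.75%) and 7 without vehicle replicate 3 (9.78%). The count with lower values was 2 without vehicle replicate 1 (10.2% of all genes) or vehicle replicate 3 (13.9%). With the filter lowered to 0.1 FPKM in 3 libraries, 4 channel genes had higher values at this p, against 4.7% of all genes, and 1 had lower values, against 6.23%.

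The direction was uneven. Of the 32 genes, 25 had higher and 7 lower mean log2 values in TMAO, with a median log2 difference of 0.33, against 46.8% higher and a median of -0.03 over all genes tested. Without vehicle replicate 1 the median was 0.11, with 22 higher and 10 lower. Vehicle replicate 1 had the lowest value of the 6 libraries in 24 of the 32 genes (75%) and in 35.8% of all genes tested. The groups did not overlap in 9 of the 32 with TMAO higher, against 12.1% of all genes, and in 2 with TMAO lower, against 17.5%. Over all 44 channel genes these counts were 10 and 4, against 7.69% and 10.5% of the genes above 0 in at least 1 library. Without vehicle replicate 1, 8 channel genes had an unadjusted p under 0.05 by limma with higher values, against 6.98% of all genes, and 2 with lower values, against 10.2%. The 8 were Scn1a, Scn2a, Scn2b, Cacna1e, Cacna1i, Cacna2d1, Cacnb4 and Cacng3, and the 2 were Cacng5 and Cacna1g. None of them passed the adjusted threshold, and the smallest adjusted p over all genes was 0.118 by limma.

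**Figure D2:**
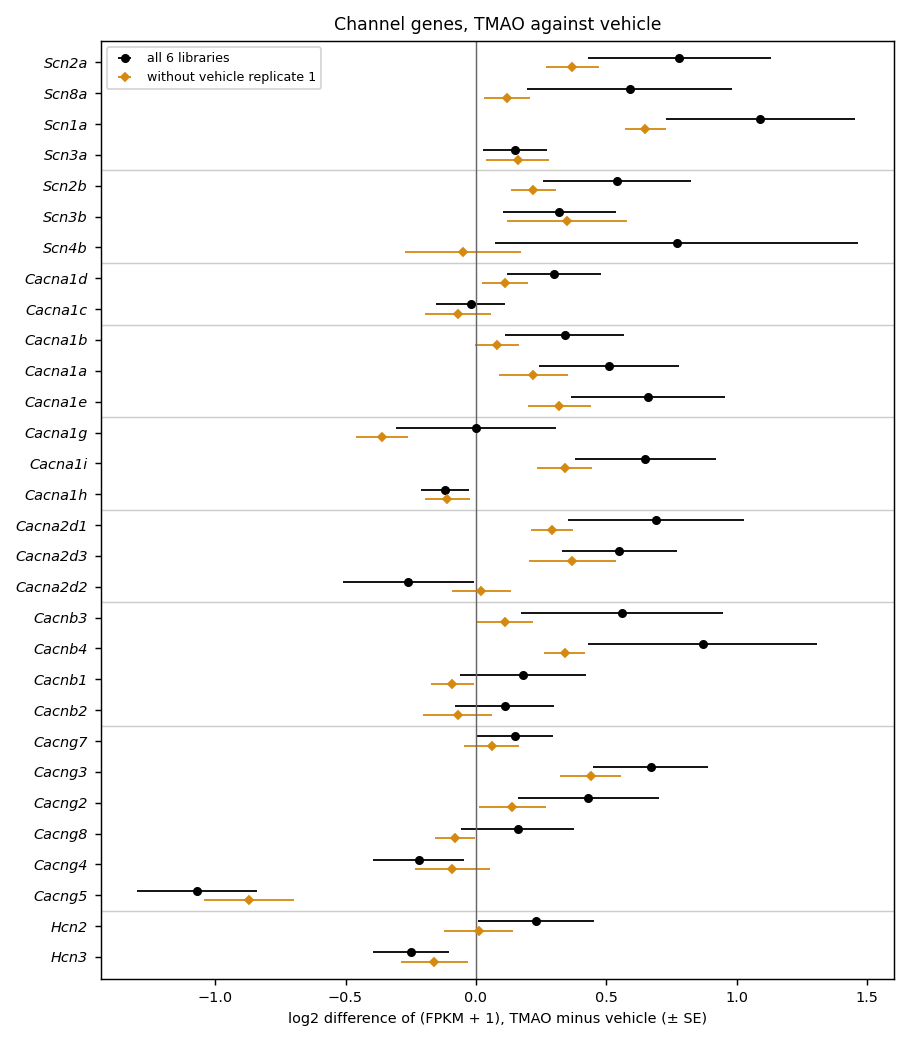
Log2 difference of (FPKM + 1), TMAO minus vehicle, for 30 channel genes that passed the filter, ordered by family and then by level; points are limma estimates and bars ± SE, with all 6 libraries (black) and without vehicle replicate 1 (orange). Scn1a lies highest at 1.09 and Cacng5 lowest at -1.07, and most positive differences are smaller without vehicle replicate 1.

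Among the pore-forming sodium channel genes, Scn1a (ENSMUSG00000064329), the main alpha subunit of fast-spiking interneurons and a gene of inherited epilepsy, differed most. It had 18.8, 18.1 and 17.5 FPKM in TMAO replicates 1, 2 and 3, against 3.92, 10.8 and 11.6 FPKM in vehicle replicates 1, 2 and 3. The TMAO libraries lay within a narrow range above every vehicle library. The log2 difference was 1.09 (SE 0.363, adjusted p = 0.404 by limma). It was 0.65 with vehicle replicate 1 left out (SE 0.0776, adjusted p = 0.118 by limma). Pvalb, the marker of the fast-spiking interneurons, had 46, 41.8 and 32 FPKM in TMAO and 2.55, 19.7 and 39.1 FPKM in vehicle, with overlapping groups. Sst, a marker of another interneuron class, ran the other way, at 73.1 to 94.4 FPKM in TMAO and 121 to 241 FPKM in vehicle. Of the 8 inhibitory neuron markers as a whole, 3 had higher and 5 lower values in TMAO (median log2 difference -0.12, and 0.08 without vehicle replicate 1), and none was at 0 in a library. Their sums were 218 to 232 FPKM in TMAO, against 380, 272 and 243 FPKM in vehicle, highest in vehicle replicate 1, where Scn1a was lowest. The part of these cell classes in the Scn1a difference was not tested.

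Scn2a, used by the axon initial segment of excitatory neurons, had 18.9, 20.4 and 21.3 FPKM in TMAO, against 5.98, 16.9 and 14.1 FPKM in vehicle. All TMAO values exceeded all vehicle values (log2 difference 0.78, SE 0.350, adjusted p = 0.404 by limma), and the difference was 0.37 without vehicle replicate 1. Scn8a, the alpha subunit of mature nodes of Ranvier, had 16.8, 19.5 and 18.6 FPKM in TMAO and 5.66, 17 and 16.5 FPKM in vehicle. Here the groups overlapped, and the log2 difference of 0.59 was 0.12 without vehicle replicate 1. Scn3a, whose expression is highest before birth, was lower in level, at 3.03 to 4.02 FPKM in TMAO and 2.9 to 3.1 FPKM in vehicle (log2 difference 0.15). In levels per length, Scn2a, Scn8a and Scn1a thus lay close together in TMAO, at 20.2 ± 1.2, 18.3 ± 1.38 and 18.1 ± 0.645 FPKM (SD, n = 3). In vehicle they averaged 12.3 ± 5.65, 13 ± 6.4 and 8.76 ± 4.21 FPKM (SD, n = 3), a spread set mostly by vehicle replicate 1.

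The other 6 alpha genes were under the filter. Scn4a of skeletal muscle was at 0 to 0.0215 FPKM over all 6 libraries. Scn9a of sensory and sympathetic neurons was at 0.183 to 0.303 FPKM in TMAO and 0.224 to 0.523 FPKM in vehicle, and Scn7a, the sodium-sensing channel of glia, at 0.336 to 0.977 and 0.176 to 1.12 FPKM. Scn10a and Scn11a were singled out after their values were seen. Scn10a, a sodium channel of pain-sensing neurons, had 0.57, 0.502 and 0.545 FPKM in TMAO, against 0.0925, 0.457 and 0.311 FPKM in vehicle, without overlap. Scn11a, of the same neurons, had 0.0411, 0.0663 and 0.0127 FPKM in TMAO, against 0.142, 0.124 and 0.0773 FPKM in vehicle, also without overlap. With the filter lowered to 0.1 FPKM in 3 libraries, Scn10a had a log2 difference of 0.27 (adjusted p = 0.451 by limma), while Scn11a was still under it.

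These alpha genes sit in clusters. The deposited tables hold no positions, so places are those of the gene IDs in GRCm38. There, Scn3a, Scn2a, Scn1a, Scn9a and Scn7a lie on chromosome 2, with Scn2a from 65620771 to 65767447 on the plus strand and Scn1a from 66270778 to 66440840 on the minus strand. Members of this cluster did not share a level, since Scn2a and Scn1a were above 17 FPKM in each TMAO library and Scn9a was below 1 FPKM in all 6 libraries. Scn10a and Scn11a are neighbours on chromosome 9 from 119608456 to 119825456. Of this pair Scn10a had higher values in TMAO and Scn11a lower ones.

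Among the beta genes, Scn2b, which is disulfide-linked to the alpha subunit, had 34.7, 33.9 and 33.1 FPKM in TMAO, against 14.3, 27 and 31.2 FPKM in vehicle. Its groups did not overlap, with a log2 difference of 0.54 (SE 0.284), and 0.22 without vehicle replicate 1. Scn3b, which binds without a disulfide bond, had 11.3, 14.5 and 15.7 FPKM in TMAO and 11.4, 13.8 and 8.05 FPKM in vehicle, and its vehicle replicate 1 was not low. Scn4b, linked to resurgent sodium current, was the beta gene most depleted in vehicle replicate 1, and it was singled out after its values were seen. It had 15.6, 14.8 and 9.72 FPKM in TMAO and 1.64, 11.6 and 15.9 FPKM in vehicle. Its log2 difference of 0.77 was -0.05 without vehicle replicate 1.

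**Figure D3:**
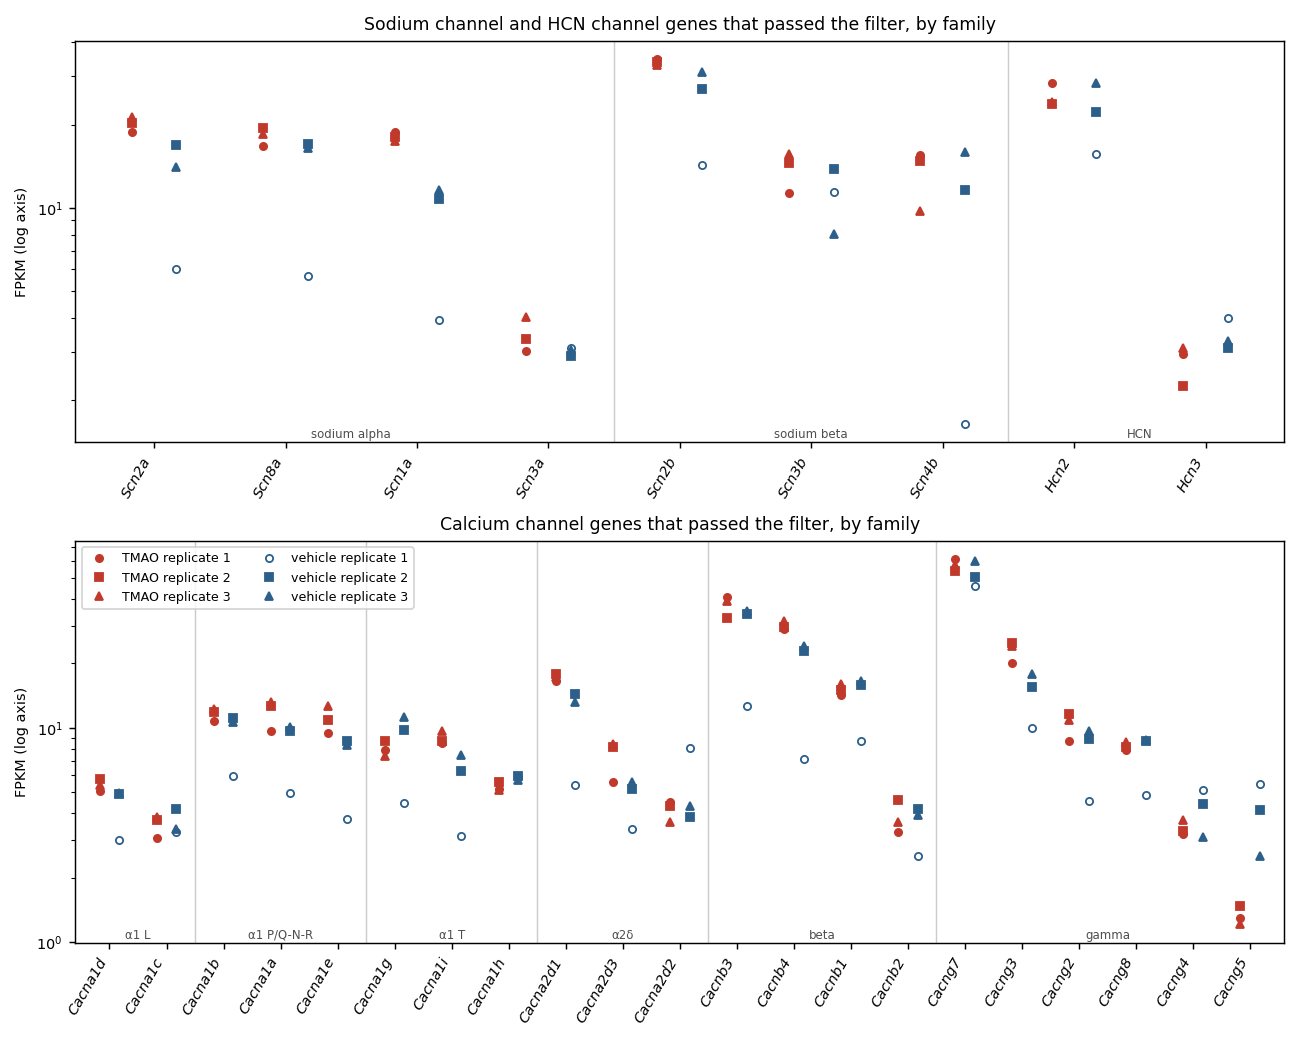
FPKM of 30 channel genes that passed the filter, in each library, on a log axis (TMAO red, left of each gene's centre; vehicle blue, right; vehicle replicate 1 open), grouped by family and ordered by mean level. Vehicle replicate 1 is the lowest library for 22 of the 30, and the Cacng5 values of TMAO lie below all of vehicle.

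Among the calcium channel pores, genes of the presynaptic kind had higher values in TMAO. Cacna1e, the R-type channel, had 9.45, 10.9 and 12.6 FPKM in TMAO, against 3.77, 8.7 and 8.36 FPKM in vehicle. The groups did not overlap (log2 difference 0.66, SE 0.295, adjusted p = 0.404 by limma; leaving out vehicle replicate 1, 0.32). Cacna1a, the P/Q-type channel of most fast synapses, had 9.7, 12.7 and 13.2 FPKM in TMAO and 4.99, 9.71 and 10.1 FPKM in vehicle (log2 difference 0.51). Cacna1b, the N-type channel, had 10.8, 11.9 and 12.2 FPKM in TMAO and 5.98, 11.1 and 10.7 FPKM in vehicle (0.34, and 0.08 without vehicle replicate 1). For both the groups overlapped narrowly. In FPKM the means of these presynaptic genes were 11, 11.8 and 11.6 in TMAO and 6.95, 8.28 and 9.24 in vehicle, in the order Cacna1e, Cacna1a, Cacna1b.

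The L-type pores, which couple calcium entry to gene expression, were lower in level and differed less. Cacna1d had 5.09, 5.76 and 5.4 FPKM in TMAO, against 3, 4.9 and 4.99 FPKM in vehicle, without overlap (log2 difference 0.30, SE 0.181, adjusted p = 0.428 by limma). Cacna1c, the main L-type pore of brain and heart, had 3.06, 3.72 and 3.83 FPKM in TMAO and 3.28, 4.17 and 3.39 FPKM in vehicle, at a log2 difference of -0.02. In vehicle replicate 1 Cacna1c was at 0.868 times the mean of the other vehicle libraries, while Scn1a was at 0.351 times. Cacna1f of the retina and Cacna1s of skeletal muscle stayed below 1 FPKM in all libraries, with Cacna1f at 0.125 to 0.171 FPKM in TMAO and 0.0587 to 0.248 FPKM in vehicle.

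The T-type pores, which open near rest and shape burst firing, had no common direction. Cacna1i had 8.48, 8.69 and 9.69 FPKM in TMAO, against 3.13, 6.28 and 7.5 FPKM in vehicle, without overlap (log2 difference 0.65, SE 0.272, adjusted p = 0.404 by limma; leaving out vehicle replicate 1, 0.34). Cacna1h lay slightly lower in every TMAO library, at 5.19, 5.59 and 5.12 FPKM, against 5.88, 5.95 and 5.69 FPKM in vehicle (log2 difference -0.12, SE 0.0926, adjusted p = 0.487 by limma). Cacna1g had 7.89, 8.69 and 7.38 FPKM in TMAO and 4.48, 9.8 and 11.2 FPKM in vehicle. Its vehicle libraries lay on both sides of the TMAO range, so its log2 difference near 0 with all libraries was -0.36 (adjusted p = 0.189 by limma) without vehicle replicate 1.

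The extracellular alpha2delta subunits also lay on both sides of 0. Cacna2d1, a target of gabapentin, had 16.5, 17.8 and 17.2 FPKM in TMAO, against 5.44, 14.4 and 13.2 FPKM in vehicle, without overlap (log2 difference 0.69, SE 0.337, adjusted p = 0.407 by limma; leaving out vehicle replicate 1, 0.29). Cacna2d3 had 5.56, 8.14 and 8.45 FPKM in TMAO and 3.37, 5.2 and 5.61 FPKM in vehicle (0.55, SE 0.220, adjusted p = 0.404 by limma). Its lowest TMAO value and its highest vehicle value nearly coincided. Cacna2d2 ran the other way, with 4.51, 4.33 and 3.65 FPKM in TMAO and 8.06, 3.84 and 4.34 FPKM in vehicle. Only vehicle replicate 1 set it apart, and its log2 difference of -0.26 was 0.02 without that library. Cacna2d4, known from the retina, was at 0.24 to 0.395 FPKM in TMAO and 0.238 to 0.396 FPKM in vehicle.

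The cytoplasmic beta subunits carry the pore to the membrane. Cacnb4, the gene disrupted in the lethargic mouse, had 28.9, 29.6 and 31.6 FPKM in TMAO, against 7.15, 22.8 and 24.2 FPKM in vehicle, without overlap (log2 difference 0.87, SE 0.439, adjusted p = 0.408 by limma). The difference was 0.34 (adjusted p = 0.175 by limma) without vehicle replicate 1. Cacnb3 had 40.6, 32.6 and 39.1 FPKM in TMAO and 12.7, 34 and 35 FPKM in vehicle, with overlap (0.56, and 0.11 without vehicle replicate 1). Cacnb1 had 14.2, 15.1 and 16 FPKM in TMAO and 8.68, 15.8 and 16.5 FPKM in vehicle (0.18, and -0.09 without vehicle replicate 1), and Cacnb2 had 3.28 to 4.59 FPKM in TMAO and 2.52 to 4.16 FPKM in vehicle. Cacnb4 was thus the beta gene whose 3 TMAO libraries all lay above all 3 vehicle libraries, and for the other 3 the groups overlapped.

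The gamma family gave both a higher and a lower member. Cacng3 (ENSMUSG00000066189), an auxiliary subunit of AMPA receptors in cortical neurons, had 20, 24.8 and 24.1 FPKM in TMAO, against 10, 15.5 and 17.8 FPKM in vehicle. The groups did not overlap (log2 difference 0.67, SE 0.220, adjusted p = 0.404 by limma; leaving out vehicle replicate 1, 0.44). Cacng2, encoding stargazin, had 8.68, 11.6 and 10.9 FPKM in TMAO and 4.58, 8.88 and 9.7 FPKM in vehicle, with overlap (0.43). Cacng7 was the most abundant gamma gene, at 61.3, 53.8 and 57.8 FPKM in TMAO and 45.7, 50.6 and 60.1 FPKM in vehicle (0.15), and its vehicle replicate 1 was 0.827 times the mean of the other vehicle libraries. Cacng8 was at 7.92 to 8.58 FPKM in TMAO and 4.85 to 8.82 FPKM in vehicle. Cacng1 and Cacng6, muscle-type members, stayed below 1 FPKM in all 6 libraries.

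Cacng5 (ENSMUSG00000040373), another AMPA receptor auxiliary subunit, had the smallest limma p of the 32 genes. It had 1.29, 1.47 and 1.21 FPKM in TMAO, against 5.45, 4.12 and 2.53 FPKM in vehicle. Every TMAO library lay below every vehicle library, at means of 1.32 ± 0.133 and 4.03 ± 1.46 FPKM (SD, n = 3 each). The log2 difference was -1.07 (SE 0.231, adjusted p = 0.404 by limma), and it was -0.87, -1.04 and -1.31 without vehicle replicate 1, 2 or 3. Cacng5 lies on chromosome 11 from 107874605 to 107915055 on the minus strand, in a row with Cacng1 and Cacng4. Its neighbour Cacng4, a gene also used by oligodendrocyte precursors, had 3.21, 3.3 and 3.72 FPKM in TMAO and 5.15, 4.43 and 3.08 FPKM in vehicle, with overlap (-0.22).

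Of the 15 lists of cell type markers, 4 had lower sums in every TMAO library than in every vehicle library, as Cacng5 had. They were the oligodendrocyte, inhibitory neuron, neutrophil and erythroid lists. Of the single genes tested, 17.5% were lower in TMAO without overlap. In the inhibitory neuron list only Sst had groups without overlap, at 73.1 to 94.4 FPKM in TMAO and 121 to 241 FPKM in vehicle. Of the 8 genes on that list, 3 had higher and 5 lower values in TMAO. The oligodendrocyte markers had lower values in TMAO in 10 of 10 genes, 8 of them at an unadjusted p under 0.05 by limma. Over all genes tested, 7.22% were lower at this p. The oligodendrocyte sums were 389 to 630 FPKM in TMAO and 760 to 928 FPKM in vehicle, with no marker at 0. The erythroid markers had lower values in 5 of 5 tested, all at this p, with sums of 80.7 to 110 FPKM in TMAO and 196 to 601 FPKM in vehicle and 1 of the 6 markers at 0 in a library. The neutrophil markers had lower values in 3 of 3 tested, all at this p, with sums of 3.99 to 7.14 FPKM in TMAO and 13.9 to 111 FPKM in vehicle and 3 of the 7 markers at 0 in a library. None of these markers passed the adjusted threshold by limma. The sums of both other lists of macroglia overlapped between groups, and their medians turned without vehicle replicate 1. The oligodendrocyte precursor markers had lower values in 6 of 8 (median -0.17, and 0.03 without vehicle replicate 1), with none at 0 and sums of 70.6 to 75.5 FPKM in TMAO and 67.7 to 128 FPKM in vehicle. The astrocyte markers had lower values in 7 of 10 (median -0.11, and 0.05 without vehicle replicate 1), with none at 0 and sums of 707 to 771 FPKM in TMAO and 692 to 1060 FPKM in vehicle. The part of these cell types in the Cacng5 difference was not tested.

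Of the HCN genes, Hcn2, a broadly expressed form, was measured well above the filter. It had 28.4, 23.9 and 24.2 FPKM in TMAO and 15.7, 22.2 and 28.5 FPKM in vehicle, with overlap (log2 difference 0.23, SE 0.223, adjusted p = 0.561 by limma; leaving out vehicle replicate 1, 0.01). Hcn3 had 2.94, 2.25 and 3.1 FPKM in TMAO and 3.99, 3.09 and 3.3 FPKM in vehicle (-0.25). Exons of Hcn3 overlap those of Pklr on the other strand (strand use in counting not given in the sources used here). In all, 11 of the 44 genes have such an overlap with a gene on the other strand, among them Cacna1a, Cacna1d, Cacna1h, Cacnb4 and Cacng2.

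Hcn4 (ENSMUSG00000032338), the pacemaker channel of the sinoatrial node, was under the filter and was singled out after its values were seen. It had 0.144, 0.278 and 0.283 FPKM in TMAO, against 3.78, 0.701 and 0.378 FPKM in vehicle. The groups did not overlap, but vehicle replicate 1 was 7.01 times the mean of the other vehicle libraries. With the filter lowered to 0.1 FPKM in 3 libraries, its log2 difference was -0.86 (adjusted p = 0.458 by limma), and -0.31 when vehicle replicate 1 was also left out. The 7 fibroblast markers (Pdgfra among them is also on the precursor list), none at 0 in any library and lower in TMAO in 4 of 4 tested, summed to 11.7 to 16.7 FPKM in TMAO, against 130, 25.3 and 13 FPKM in vehicle. The 7 border macrophage markers, none at 0 and lower in TMAO in 3 of 3 tested, summed to 3.03 to 6.26 FPKM in TMAO, against 70.8, 15.7 and 4.55 FPKM in vehicle. Both sums were highest in the library where Hcn4 was highest, but so were those of 12 of the 15 marker lists. The exceptions were the neuron, excitatory neuron and regional neuron lists. The regional list was mixed in vehicle replicate 1. Of its genes, Prox1 (5.11 FPKM) and Tcf7l2 (1.56 FPKM) were highest in that library, while Ppp1r1b (9.46 FPKM), Fezf2 (1.63 FPKM) and Cux2 (1.78 FPKM) were lowest in it. The part of these cell types in the Hcn4 values was not tested.

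**Figure D4:**
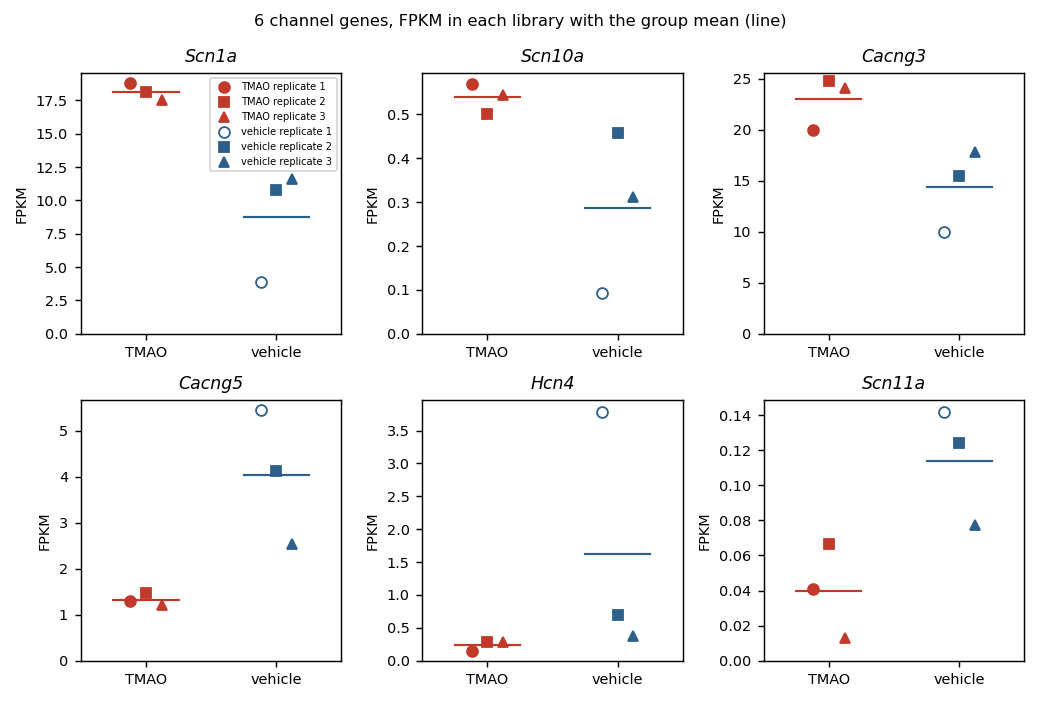
FPKM of Scn1a, Scn10a, Cacng3, Cacng5, Hcn4 and Scn11a in each library (TMAO red, vehicle blue, vehicle replicate 1 open; lines are group means; each panel has its own axis from 0). The panels show only genes whose groups do not overlap, so the lack of overlap here is no result. Of the 44 channel genes 10 were without overlap and higher in TMAO and 4 lower, against 7.69% and 10.5% of genes above 0. Scn10a, Scn11a and Hcn4 were singled out after their values were seen. The high vehicle mean of Hcn4 rests on vehicle replicate 1, at 3.78 FPKM.

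In the authors' deposited table, 5 of the 44 channel genes were marked as significant, against 6.38% of all genes. In the authors' deposited table, Cacng5 had a log2 fold of -1.61 with a q of 0.00166 and Hcn4 one of -2.78 with a q of 0.0333. In the same authors' deposited table, Scn1a was marked as higher (log2 fold 1.05, q of 0.208), and Scn11a (-1.51, q of 0.391) as lower. The test behind these values was not given in the sources used here. For Hcn4, vehicle replicate 1 was the library with the high value.

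Levels per neuronal RNA were compared by dividing each library by its neuron marker sum, which moved the median log2 difference of all genes to -0.42 and that of the channel genes to -0.08. The division scales all genes of a library alike, so it leaves their order within a library unchanged. The log2 difference of Scn1a was 0.68 after the division, against 1.09 before it, and that of Cacng5 was -1.44, against -1.07 before it. Relative to the shifted median of all genes these were 1.10 and -1.02. No gene of all those tested passed the adjusted threshold (smallest adjusted p 0.522 by limma). Scn1a and Cacng5 were the only channel genes with an unadjusted p under 0.05 by limma after the division. At this p 0.443% of all genes were higher and 2.7% lower. By family, sodium channel alpha RNA made up 4.25%, 4.74% and 5.3% of the neuron marker sum in TMAO and 3.8%, 4.2% and 3.62% in vehicle. These groups did not overlap, by a narrow margin. T-type RNA ran the other way, also narrowly without overlap, at 1.55%, 1.74% and 1.85% in TMAO and 2.46%, 1.86% and 1.9% in vehicle. The shares of the remaining families, sodium beta among them, overlapped between groups. HCN RNA made up 2.34% to 2.61% in TMAO and 4.68%, 2.54% and 2.79% in vehicle, and gamma RNA 7.4% to 8.9% in TMAO and 14%, 7.8% and 7.98% in vehicle. In vehicle replicate 1 the gamma, HCN, L-type, T-type and alpha2delta shares were the highest of all libraries. Its L-type share was 1.19%, against 0.604% to 0.794% in the others, and its alpha2delta share 3.12%, against 1.83% to 2.46%. Its sodium beta share of 11.3% was the lowest, against 16.8% to 19.6% in TMAO and 14.1% and 17.3% in the other vehicle libraries. Its calcium beta share of 5.68% was also the lowest, against 6.18% to 7.54% in the others.

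Genes whose products work with these channels differed by list, with median log2 differences between -0.02 and 0.55, against 0.33 for the channel genes. Of 13 sodium channel partners tested, 10 had higher values in TMAO (median log2 difference 0.41). Higher values at an unadjusted p under 0.05 by limma were found for 4.84% of all genes and for 1 of these partners. That partner was Fgf13, which binds the sodium channel tail. It had 22.5, 19.4 and 18.5 FPKM in TMAO, against 9.56, 15.5 and 15.4 FPKM in vehicle (0.57, and 0.36 without vehicle replicate 1). All 3 tested genes of the sodium leak channel complex had higher values (median 0.45). Among them Unc80, its large scaffold subunit, had 25.2, 23.4 and 25.6 FPKM in TMAO, against 6.21, 16.6 and 16 FPKM in vehicle, without overlap (1.0, and 0.58 without vehicle replicate 1).

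Of 12 tested calcium channel partners, 10 had higher values (median 0.55). The list holds 16 genes, and Stac, Rem1, Rem2 and Rrad were under the filter. Their means were all lower in TMAO, at 0.169, 0.0887, 0.661 and 0.245 FPKM. In vehicle they were 0.637, 0.575, 1.19 and 1.74 FPKM, and each of these genes was highest in vehicle replicate 1. Rims2, an active zone protein that binds presynaptic calcium channels, had 11, 12.6 and 12.6 FPKM in TMAO, against 5.27, 8.77 and 8.12 FPKM in vehicle (0.66, adjusted p = 0.404 by limma). Among those tested, Gem, a small GTPase that inhibits calcium channels, had lower values in TMAO. It had 1.7, 0.82 and 0.901 FPKM in TMAO and 15.1, 4.46 and 1.66 FPKM in vehicle (-1.55, and -0.85 without vehicle replicate 1). Its TMAO replicate 1 and vehicle replicate 3 nearly coincided. Of 7 tested HCN partners, 3 had higher and 4 lower values (median -0.02), with the cyclic AMP phosphodiesterase Pde4b at 13.7, 12.6 and 11.2 FPKM in TMAO, against 22.3, 20.1 and 15 FPKM in vehicle (-0.56, adjusted p = 0.404 by limma). Of 6 AMPA receptor auxiliary genes outside the gamma family, 4 had higher values (median 0.23). No partner gene passed an adjusted p of 0.05 by limma, and without vehicle replicate 1 the medians were 0.14, 0.21, 0.19, -0.11 and -0.12 in the order of the lists given.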

How the data were processed

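RNA was sequenced in 3 TMAO and 3 vehicle libraries. Trimming with cutadapt 1.9 and the genome build mm9 are named per the submitters' processing notes. With aligner, quantifier and annotation not given in the sources used here, how reads shared by similar channel genes were divided among them is unknown. The authors deposited FPKM of 36758 genes per library, with their ratio (fold) of group means, its log2, and a p-value and q-value, per the file headers. The 2 deposited tables hold equal values, and all 6 value columns were matched to libraries by the library names in the labels. Coordinates come from GENCODE M21 (GRCm38), which holds 99.6% of the deposited gene IDs.

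The depth of the libraries is unknown: low FPKM values of genes with 1 transcript fell within 2% of a whole step in 15.4% to 25.6% of cases, too few to recover reads. FPKM summed to 305701 to 326977 per library. Precision is given by the spread between libraries.

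Here log2(FPKM + 1) of the 14206 genes at 1 FPKM or more in at least 3 libraries was fitted with limma 3.58.1 in R 4.3.3 (trend and robust estimation, two-sided, Benjamini-Hochberg adjustment over all genes), and tested on simulated data. The members, the partner and marker lists and the rule for named genes were chosen with earlier results of these data known. The rule took, in each family, up to 3 genes of highest level and up to 3 of smallest p, genes past the threshold, genes against the direction of their family by over 0.2 on the log2 scale, and up to 3 genes per list. Alternatives varied the pseudocount, filter, normalization, variance model, replicate block, division by neuron markers and each library left out. Results of some members are not reported here. Figures were drawn with matplotlib 3.10.9.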

Additional observations from a re-analysis of the deposited data

How the results depend on the processing

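No channel gene and no other gene passed an adjusted p of 0.05 by limma under any of the 9 alternatives with all 6 libraries or the 6 that left out a library. With all 6 libraries 1712 genes had an unadjusted p under 0.05. The counts of channel genes at an unadjusted p under 0.05 were less stable. Leaving out each library in turn gave 0 (without TMAO replicate 2 or 3) to 8 (without vehicle replicate 1) with higher values and 1 to 2 with lower values, against 3 and 1 with all 6 libraries. The count of higher ones was 1 after division by neuron markers. Without a filter on low values 2 had lower values, Cacng5 and Scn11a, against 4.07% of all genes. With the filter at 0.1 FPKM and vehicle replicate 1 left out, a choice made after the data were seen, there were 8 higher and 3 lower, against 5.73% and 8.28% of the 22227 genes tested.

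With the replicate number as a block, 7 channel genes had higher values at an unadjusted p under 0.05, against 3.77% of all genes, and none passed the adjusted threshold. Deviations of same-numbered libraries from their group means correlated at -0.216, -0.0636 and -0.0153 across genes. The best match of TMAO replicate 1 was vehicle replicate 3, at 0.244. Within a group of 3 libraries the deviations sum to 0, so these correlations depend on each other. They cannot decide whether the numbers pair the libraries.

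The median log2 difference of 0.33 was 0.11 to 0.48 when a library was left out. It was -0.08 after division by neuron markers, where the median of all genes was -0.42. Under that division Cacna1b and Cacna1d were at -0.08, Cacnb1 at -0.25, Cacng7 at -0.31, Scn3b at -0.12 and Hcn2 at -0.22, against positive values without it. The division scales a whole library, so small positive differences change sign by its construction, and these signs say nothing of the single genes. Leaving out a library gave -0.43 to 0.02 for Cacna2d2, -0.09 to 0.33 for Cacnb1 and -0.05 to 1.29 for Scn4b, each with the other sign without vehicle replicate 1, and Cacna1f was at -0.02 with the lower filter and without that library. Differences close to 0 changed sign most often. Cacna1c was at 0.04 under quantile normalization and equal medians, 0.05 without TMAO replicate 1 and 0.06 without vehicle replicate 2, in a range from -0.07 when a library was left out. Cacna1g was at 0.07 under quantile normalization and equal medians, 0.01 with a pseudocount of 0.1 or without TMAO replicate 1, 0.05 without TMAO replicate 3, 0.13 and 0.22 without vehicle replicates 2 and 3, and -0.36 without vehicle replicate 1. The other 421 values of named genes kept their direction and stayed above the adjusted threshold. The cause of the changes was not tested. With 3 libraries a group, differences within the spread between libraries were not detectable.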
